A study of Mus musculus with 17 samples.

Results

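Small leucine-rich proteoglycan genes were followed in mouse pancreatic stellate cells, the vitamin A storing cells of the pancreas that become fibroblasts. The 9 genes were Bgn, Dcn, Aspn, Fmod, Lum, Prelp, Omd, Ogn and Podn, out of 35896 gene IDs listed and 13923 tested. All 9 were matched to an Ensembl ID and all 9 passed the filter on low counts. The set was chosen by the CPM of Fmod (fibromodulin), which moves strongly between media and differs between the cell lines, so the values of Fmod are given as a description without a test. The other 8 genes were tested.

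The study sequenced mRNA from 17 libraries of the lines PSC4 and PSC5, both wild-type C57BL/6J stellate cells grown in Matrigel (a basement membrane gel) with 4 days of treatment. Control medium had 5 libraries, which the series calls quiescent cells. TGF-beta at 20 ng/mL had 4 libraries, medium conditioned by pancreatic tumour organoids (CM) had 4, and CM with 300 nM neratinib, an ERBB kinase inhibitor, had 4. The labelled design has no tumour cells in these cultures, and passages ran from 23 to 28 with 1 passage for each line and replicate number. Replicates of a line thus differ in passage, and the labels say no more about how separate they were, so p-values measure only the spread between these libraries.

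Small leucine-rich proteoglycans are secreted proteins with a core of leucine-rich repeats, most of which carry chondroitin, dermatan or keratan sulfate chains. They bind collagen fibrils and set their diameter and spacing, and several bind growth factors such as TGF-beta or, when released from the matrix, Toll-like receptors. In the pancreas they belong to the stroma that fibroblasts lay down in pancreatitis and in tumours. Class I holds Bgn (biglycan), Dcn (decorin) and Aspn (asporin), class II holds Fmod, Lum (lumican), Prelp and Omd (osteomodulin), class III holds Ogn (osteoglycin) and class V holds Podn (podocan).

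Most of the genes lie in clusters (GENCODE M21, GRCm38). On chromosome 13, Aspn (49544443 to 49567565), Omd (49582462 to 49592822) and Ogn (49608046 to 49624501) follow each other on the plus strand, with Ecm2 11.7 kb before Aspn. Dcn (97479609 to 97518143) and Lum (97565128 to 97572703) are 47.0 kb apart on chromosome 10, also on the plus strand. On chromosome 1, Prelp (133910304 to 133921414, minus strand) lies 115.8 kb from Fmod (134037254 to 134048277, plus strand). Bgn is on chromosome X (73483602 to 73495933, plus strand) and Podn on chromosome 4 (108014791 to 108096445, minus strand). Exons of Aspn overlap exons of Cenpp on the other strand, and exons of Prelp overlap the antisense gene Gm15851, which the files do not list. The strand setting of the library is not given in the sources used here, so reads of such pairs may not be told apart.

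The RefSeq promoter windows (GRCm38.p6, 250 bases before to 50 after the start, 5′ to 3′ on the gene's strand) of 3 members are printed because these genes differed in their response to TGF-beta: Bgn was higher, Fmod was higher in the mean, and Prelp was lower in the mean. Of these, Fmod was not tested and the fall of Prelp did not pass. Capitals mark CAGAC or its reverse complement GTCTG, the core that SMAD proteins, the nuclear effectors of TGF-beta, can bind. The windows are chrX:73483351-73483650 (plus strand), chr1:134037004-134037303 (plus strand) and chr1:133921352-133921651 (minus strand), in the order shown.
Bgn: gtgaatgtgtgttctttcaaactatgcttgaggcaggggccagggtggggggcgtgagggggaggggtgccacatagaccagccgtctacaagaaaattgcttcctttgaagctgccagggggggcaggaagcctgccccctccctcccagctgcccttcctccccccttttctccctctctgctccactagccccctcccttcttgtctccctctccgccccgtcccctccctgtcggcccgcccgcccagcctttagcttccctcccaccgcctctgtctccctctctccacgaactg
Fmod: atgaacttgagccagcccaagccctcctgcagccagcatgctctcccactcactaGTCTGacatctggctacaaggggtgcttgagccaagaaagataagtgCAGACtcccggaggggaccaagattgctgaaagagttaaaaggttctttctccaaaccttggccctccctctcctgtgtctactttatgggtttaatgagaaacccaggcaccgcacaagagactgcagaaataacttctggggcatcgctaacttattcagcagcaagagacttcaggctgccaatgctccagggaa
Prelp: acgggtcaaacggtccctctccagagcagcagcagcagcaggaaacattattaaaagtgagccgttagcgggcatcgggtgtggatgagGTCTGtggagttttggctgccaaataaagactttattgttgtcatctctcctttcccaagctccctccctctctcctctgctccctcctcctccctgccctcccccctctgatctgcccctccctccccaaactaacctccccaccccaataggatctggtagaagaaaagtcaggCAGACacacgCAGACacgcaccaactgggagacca
The motif occurred 2 times in the Fmod window, 3 times in the Prelp window and not in the Bgn window. It was not in the Ogn window either, which is not printed although Ogn was called lower with TGF-beta. Among the 8 member windows found for 7 genes (2 of them for Podn), 3 held it, against 49.6% of all 32851 windows of this length. These letters were searched on both strands and overlap no other motif searched. TGANTCA, the AP-1 site, was in none of the 8 windows and in 7.81% of all, and CATTCC, the TEAD site, was in 1 (Ogn) and in 14.7% of all. TATAAA was in 2 windows (Aspn and Ogn) and in 13.6% of all. The matches are a description of these windows.

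Library totals lay between 22168953 and 29421447 estimated counts, and 16199 to 17405 genes had a count. Levels are CPM (counts scaled to a common library total) after TMM correction, and 3 counts in a library correspond to 0.102 to 0.135 CPM. Of the stellate and fibroblast markers, 10 of 10 were detected in each library. Their sum moved with the medium, from 5650 to 7183 CPM in control medium, 8936 to 18482 CPM with TGF-beta, 4451 to 5233 CPM in CM and 2675 to 4736 CPM in CM with neratinib, and its part in the results below was not tested. The fibrillar collagens Col1a1 and Col3a1 are among these markers. Endothelial markers summed to at most 5.63 CPM, immune markers to at most 13.4 CPM and acinar markers to at most 12.2 CPM. The 12 epithelial markers summed to 14.8 to 23.6 CPM in the 9 control and TGF-beta libraries, with 2 to 6 of them at 0. They summed to 9.75 to 52.1 CPM in the 4 conditioned libraries whose titles carry T8 (up to 5 at 0), and to 146 to 323 CPM in the 4 that carry T6, with all 12 detected. Of the Y-linked genes, Eif2s3y had 5 to 16 counts and Ddx3y 3 to 11 in the T6 libraries, against 0 of both in the T8 libraries and at most 1 in control medium and with TGF-beta. Uty had 6 to 7 counts in T6 and 1 to 3 in T8, and Kdm5d 18 to 31 and 6 to 31, which overlapped. The labels do not say what T6 and T8 stand for, and T6 goes with replicate 2 and T8 with replicate 1.

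PSC4 replicate 1 has 3 libraries (in control medium and in CM without and with neratinib), and these stood apart from their label. Over 809 genes outside the family that differed between the lines in the other 14 libraries, the control library labelled PSC4 replicate 1 was closer to PSC5 at 93.1%. The CM library so labelled was closer to PSC5 at 92% of the genes and the one with neratinib at 78%. Calls of the family that change without these libraries, or when they are assigned to PSC5, are given with those values.

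**Figure D1:**
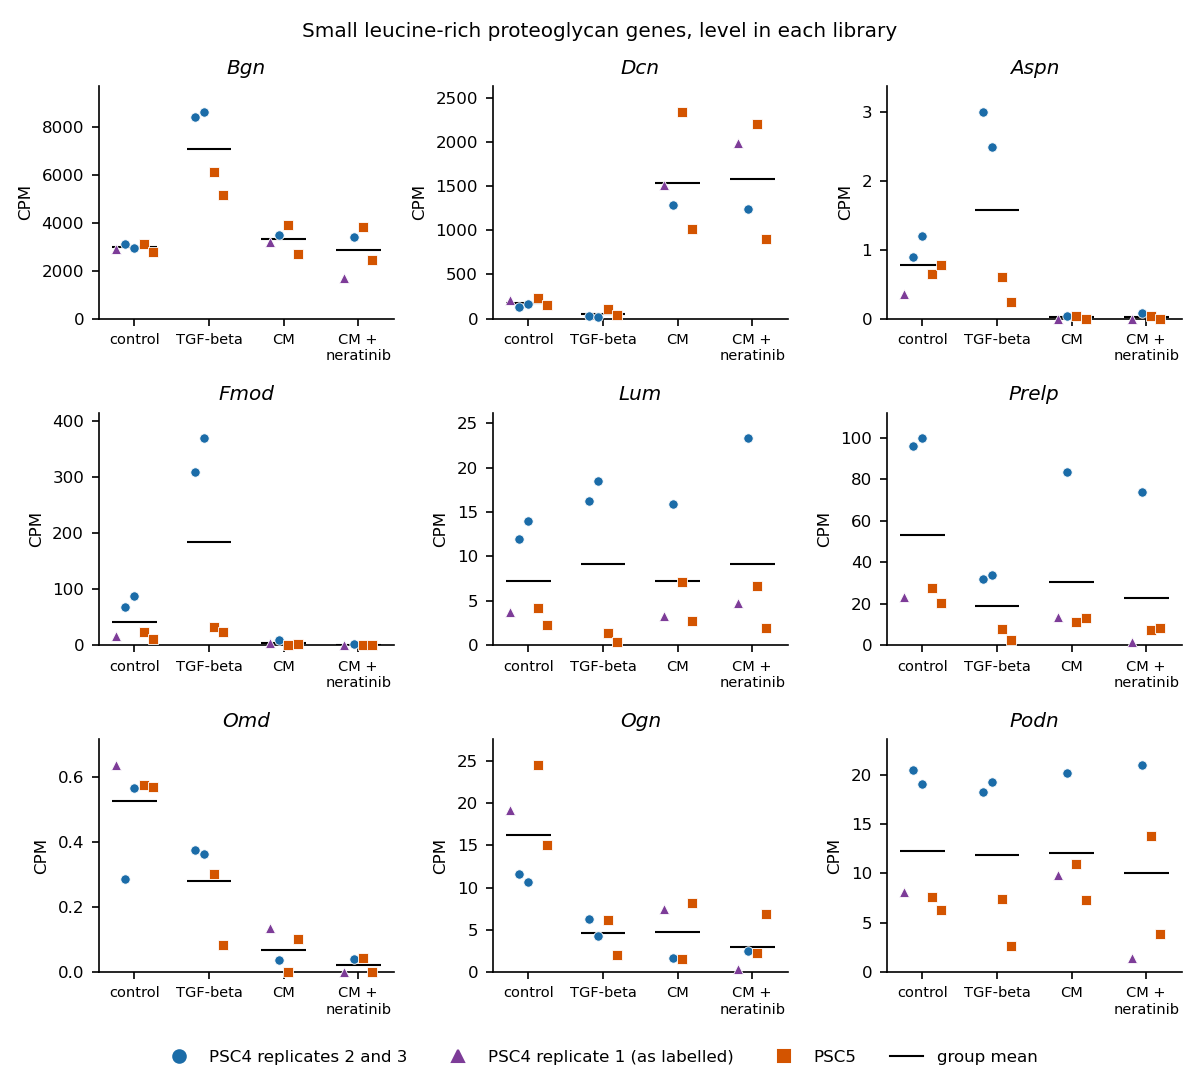
Level of each gene (vertical axes, CPM, each from 0) in each of the 17 libraries by group, with points for libraries and lines for group means. Bgn stands highest with TGF-beta (5180 to 8652 CPM) and Dcn in the 2 conditioned groups (901 to 2341 CPM), while Fmod, Lum, Prelp and Podn are higher in PSC4 replicates 2 and 3 than in PSC5.

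Per length, the family was mainly Bgn and Dcn. Dividing by the length of the principal transcript, Bgn stood at 1233 ± 57.1 CPM per kilobase in control medium (SD, n = 5), Dcn at 103 ± 22.5, Prelp at 14.8 ± 11.3 and Fmod at 13.4 ± 11.0. Ogn (6.31 ± 2.24), Podn (3.88 ± 2.18), Lum (2.96 ± 2.18), Aspn (0.333 ± 0.133) and Omd (0.234 ± 0.0610) followed in that order, on the same scale. Bgn and Dcn were apart from all others, whereas Prelp, Fmod and Ogn, Podn and Lum, and Aspn and Omd lay within 1 SD of their neighbour in the order. Aspn and Omd had at most 80 and 16 counts in any library, so their values rest on few reads.

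The division of the family between Bgn and Dcn shifted with the medium. Bgn made up 89.5% ± 1.26 of the summed level per kilobase in control medium (SD, n = 5), 96.8% ± 1.10 with TGF-beta (n = 4), 61.5% ± 5.15 in CM (n = 4) and 56.4% ± 13.0 in CM with neratinib (n = 4). Dcn made up 7.46% ± 1.53, 1.08% ± 0.971, 37.7% ± 5.59 and 42.9% ± 13.4 in the same order. The ratio of Bgn to Dcn per kilobase was 12.4 ± 2.73 in control medium, 40.4 to 355 in the TGF-beta libraries, 1.22 to 1.99 in CM and 0.624 to 2.00 in CM with neratinib. The TGF-beta range lay above all control libraries and both conditioned ranges lay below them. Dcn exceeded Bgn in 1 library, CM with neratinib labelled PSC4 replicate 1. With the union of all exons as the length, the mean ratios were 16.4, 229, 2.20 and 1.94, in the same order of media.

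**Figure D2:**
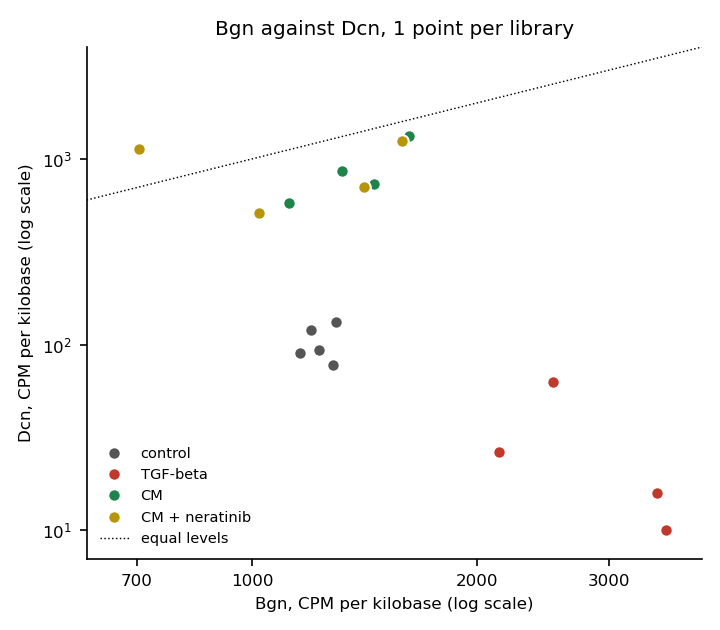
Bgn (horizontal axis) against Dcn (vertical axis), both in CPM per kilobase of the principal transcript on log scales, 1 point per library, coloured by group; the dotted line marks equal levels. The TGF-beta libraries lie to the right and below the control libraries, and the conditioned libraries lie above them, with 1 of 8 conditioned libraries over the line.

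The comparison of TGF-beta with control medium asks how the family stands in cells that the series calls myofibroblastic. Bgn rose, and Dcn and Ogn fell. Of the 8 tested genes 1 was called higher and 2 lower (edgeR quasi-likelihood test, adjusted p under 0.05), where 19.7% of all genes tested were higher and 20.5% lower. In bulk RNA, fewer cells of a kind and less RNA per cell cannot be told apart. The median log2 fold change of the 8 genes was -0.48, against -0.02 over all genes.

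Bgn, which binds collagen and TGF-beta and can signal through Toll-like receptors, had 2902, 3105 and 2966 CPM in control PSC4 replicates 1 to 3 and 3134 and 2805 CPM in PSC5 replicates 1 and 2. With TGF-beta it had 8426 and 8652 CPM in PSC4 replicates 2 and 3, and 6119 and 5180 CPM in PSC5 replicates 1 and 2. The groups did not overlap, and the control values were within a narrow band. This was a 2.38-fold rise (log2 1.25, SE 0.21, adjusted p = 0.000233), with 4 of 4 libraries above the control mean. Within the lines as labelled it was 1.51 (SE 0.26) in PSC4 and 0.93 (SE 0.29) in PSC5.

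Dcn, which binds collagen and TGF-beta and restrains several growth factor receptors, had 210, 137 and 165 CPM in control PSC4 and 233 and 159 CPM in control PSC5. With TGF-beta it had 27.9 and 17.7 CPM in PSC4 and 110 and 46.1 CPM in PSC5. All 4 treated libraries lay below all 5 controls, the PSC4 libraries farthest. Dcn fell by 2.01 in log2 terms (SE 0.43, adjusted p = 0.0018). Within PSC4 it was -2.90 (SE 0.54) and within PSC5 -1.33 (SE 0.53).

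Ogn, a small leucine-rich proteoglycan first described in bone, had 19.2, 11.5 and 10.6 CPM in control PSC4 and 24.5 and 15.1 CPM in control PSC5. With TGF-beta it had 6.24 and 4.26 CPM in PSC4 and 6.11 and 2.03 CPM in PSC5, all below the controls. In the fit the value was -1.78 (SE 0.63, adjusted p = 0.0351). With a block for line and replicate number the call was lost (-1.64, adjusted p = 0.0542). It was kept in 4 of 9 fits that left out 1 library, and lost without control PSC4 replicate 1, control PSC5 replicate 1, TGF-beta PSC4 replicate 3 or either TGF-beta PSC5 library (adjusted p from 0.0661 to 0.0988).

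Fmod, which binds collagen and is needed for normal fibril maturation, had 17.1, 67.4 and 88.5 CPM in control PSC4 and 23.8 and 11.7 CPM in control PSC5. With TGF-beta it had 308 and 368 CPM in PSC4 and 32.0 and 23.9 CPM in PSC5. The treated PSC4 libraries were far above all others. The treated PSC5 libraries lay above both PSC5 controls but below control PSC4 replicates 2 and 3, so the groups overlapped. The log2 fold change was 1.79 (SE 0.56) over both lines, 2.55 (SE 0.72) within PSC4 and 0.65 (SE 0.81) within PSC5. With PSC4 replicate 1 assigned to PSC5, it was 2.12 (SE 0.41) within PSC4 and 0.67 (SE 0.38) within PSC5.

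Prelp, which binds collagen and heparan sulfate, had 23.3, 95.9 and 99.7 CPM in control PSC4 and 27.4 and 20.4 CPM in control PSC5. With TGF-beta it had 31.8 and 33.7 CPM in PSC4 and 7.61 and 2.36 CPM in PSC5. The groups overlapped, but within PSC5, and within PSC4 replicates 2 and 3, the treated libraries were lower. The log2 fold change was -1.61 (SE 0.75, adjusted p = 0.1), which did not pass. With the replicate block it was -2.05 (adjusted p = 0.00115). It was -2.0 (adjusted p = 0.00054) after PSC4 replicate 1 was assigned to PSC5 and -1.92 (adjusted p = 0.000117) after it was left out.

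The remaining 4 genes did not pass. Aspn, which binds collagen and TGF-beta, had a log2 difference of 0.78 (SE 0.56, adjusted p = 0.297), with 3.01 and 2.49 CPM in treated PSC4 but 0.602 and 0.244 CPM in treated PSC5, against 0.358 to 1.20 CPM in control medium. Lum, which spaces collagen fibrils, had -0.02 (SE 0.69, adjusted p = 0.989), with 16.2 and 18.5 CPM in treated PSC4 and 1.38 and 0.325 CPM in treated PSC5. Omd, a keratan sulfate proteoglycan of bone, had -0.90 (SE 0.53, adjusted p = 0.19). Podn, a collagen-binding proteoglycan, had -0.06 (SE 0.58, adjusted p = 0.951).

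The comparison of CM with control medium asks what signals from tumour organoids do to these cells. Dcn rose, and Aspn and Omd fell. Of the 8 tested genes 1 was higher and 2 were lower, where 7.05% of all genes were higher and 7.14% lower. Of these 2, Omd passed the filter on low counts only through control medium, and Aspn only through control medium and TGF-beta. Both lower calls were thus favoured, and the lower count is a description. The median of the 8 was -0.30, against 0 over all genes. This comparison shares its control libraries with that of TGF-beta.

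Dcn had 1509 and 1283 CPM in CM in PSC4 replicates 1 and 2, and 2341 and 1014 CPM in PSC5 replicates 1 and 2. All 4 were above the highest control value of 233 CPM. The log2 fold change was 3.03 (SE 0.41, adjusted p = 0.000407), an 8.19-fold rise, and it was 3.03 within PSC4 and 3.10 within PSC5. Both T8 libraries were above both T6 libraries. The epithelial markers summed to 20.2 and 42.7 CPM in these T8 libraries and to 180 and 150 CPM in the T6 libraries, and their part in the result was not tested.

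Aspn had 0 and 1 counts in PSC4 and 1 and 0 counts in PSC5 in CM, against 9 to 34 counts in the control libraries. Summed over the groups this was 2 counts against 108. The control level was 44.7 times the CM level, with an exact 95% interval of 12.1 to 373 that covers counting error only. The test gave an adjusted p of 0.00206, and all 4 libraries were below all controls. Control and TGF-beta libraries alone carried Aspn through the filter on low counts, so a lower value in CM was favoured. Its call is a description. Cenpp, whose exons overlap those of Aspn, stood at 6.51 ± 0.342 CPM in control medium (SD, n = 5) and 6.18 ± 0.325 CPM in CM (SD, n = 4).

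Omd had 4, 1, 0 and 3 counts in the CM libraries against 8 to 16 counts in the controls. Since the control libraries alone carried it through the filter, a lower value in CM was favoured, and its call is a description. The log2 fold change was -2.83 (SE 0.62, adjusted p = 0.00874), and the call was lost with the T6 libraries removed (-2.85, adjusted p = 0.0735), a setting with fewer libraries. The control level was 7.44 times the CM level in summed counts, with an interval of 3.58 to 17.9.

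Ogn had 7.51, 1.62, 1.57 and 8.15 CPM in CM, in PSC4 replicates 1 and 2 and PSC5 replicates 1 and 2. All were below the lowest control value of 10.6 CPM, but they spread widely, and neither the lines nor T6 and T8 put the same libraries on top. The log2 difference of -1.79 (SE 0.63, adjusted p = 0.0705) did not pass. It passed with DESeq2 (adjusted p = 0.0218) and when PSC4 replicate 1 was assigned to PSC5 (-1.88, adjusted p = 0.037) or left out (-2.15, adjusted p = 0.0276).

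Fmod had 3.23, 9.77, 1.26 and 1.64 CPM in CM, all below the lowest control value of 11.7 CPM. In the fit it differed by -3.36 (SE 0.66), with -3.15 within PSC4 and -3.60 within PSC5. Bgn stood at 3335 ± 514 CPM in CM and 2983 ± 138 in control medium (0.17, SE 0.21, adjusted p = 0.634). Lum (0.37, SE 0.72, adjusted p = 0.775), Prelp (-0.75, SE 0.72, adjusted p = 0.534) and Podn (0.14, SE 0.58, adjusted p = 0.898) did not pass either.

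The 4 libraries with neratinib were set against control medium first. In CM with neratinib Dcn rose and Ogn, Omd and Aspn fell, so that 1 of the 8 genes was higher and 3 were lower, where 22.2% of all genes were higher and 20.9% lower. The filter on low counts favoured the lower calls of Omd and Aspn, as it did in CM. The median was -0.65, against 0.005 over all genes. The control libraries are again the same.

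Dcn had 1989, 1238, 2203 and 901 CPM in PSC4 replicates 1 and 2 and PSC5 replicates 1 and 2, all above the controls (3.10, SE 0.41, adjusted p = 6.45e-05). Ogn had 0.383, 2.45, 2.20 and 6.92 CPM in the same order, all below the controls (-2.55, SE 0.67, adjusted p = 0.0069). Omd had 2 counts in the 4 libraries against 72 in the 5 controls, and the control level was 24.6 times as high with an interval of 6.58 to 207 (adjusted p = 0.000536). This call of Omd too is a description, as the gene passed the filter through its controls alone. Aspn had 3 counts against 108, a ratio of 24.6 with an interval of 8.21 to 121 (adjusted p = 0.000864). This call of Aspn is a description as well, since no conditioned library carried it through the filter. Cenpp fell in this comparison (-0.79, SE 0.13, adjusted p = 0.0003), to 3.81 ± 0.837 CPM.

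Fmod had 0, 2.80, 0.735 and 0.550 CPM in CM with neratinib, all below the lowest control value of 11.7 CPM (-5.22, SE 0.80 against control). The library at 0 counts, labelled PSC4 replicate 1, allows up to 0.120 CPM. Bgn had 1708, 3410, 3839 and 2469 CPM, around the control values (-0.05, SE 0.21, adjusted p = 0.863). Prelp did not pass (-1.24, SE 0.74, adjusted p = 0.189), whereas with the replicate block it did (-1.49, adjusted p = 0.00812), as it did when PSC4 replicate 1 was assigned to PSC5 (-1.43, adjusted p = 0.00527) or left out (-1.05, adjusted p = 0.0129). Lum had a difference of 0.49 (SE 0.71, adjusted p = 0.598) and Podn of -0.06 (SE 0.59, adjusted p = 0.943).

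Neratinib itself, as CM with neratinib against CM, changed none of the 8 genes past the threshold, where 10.8% of all genes were higher and 9.63% lower. The count was also 0 with DESeq2, which called 3556 of 22704 genes over all. It was 0 at an unadjusted p under 0.05 in edgeR, where the share of all genes was not counted. The median was -0.21, against 0.001 over all genes. The difference was 0.07 (SE 0.41, adjusted p = 0.925) for Dcn and -0.22 (SE 0.22, adjusted p = 0.513) for Bgn. It was 0.12 (SE 0.75) for Lum, -0.76 (SE 0.67) for Ogn, -0.49 (SE 0.76) for Prelp and -0.20 (SE 0.62) for Podn. With standard errors of this size the levels of these 4 genes are not shown to be equal. Omd and Aspn were at or near the limit of 3 counts in both groups. Fmod was lower in each library with neratinib than in the CM library of the same line and number, with a log2 difference of -1.87 (SE 0.86), although the ranges of the groups overlapped.

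CM was also compared with TGF-beta directly, across the same libraries as above. Dcn was higher in CM, with a log2 difference of 5.05 (SE 0.50, adjusted p = 2.8e-06), and Bgn was lower (-1.08, SE 0.22, adjusted p = 0.00145). Aspn was lower, with 2 counts in CM against 169 with TGF-beta, a ratio of 94.1 with an interval of 25.6 to 783 (adjusted p = 0.00013). Its call is a description here too, since control and TGF-beta libraries alone carried it through the filter. Omd was lower (-1.93, SE 0.67, adjusted p = 0.0351). That made 1 of 8 higher and 3 lower, where 17.8% of all genes were higher and 17.5% lower. The call of Omd was kept in 3 of 8 fits that left out 1 library and lost without CM PSC4 replicate 2, CM PSC5 replicate 1, either TGF-beta PSC4 library or TGF-beta PSC5 replicate 1 (adjusted p from 0.0756 to 0.0982). It was lost too without a filter on low counts and with the T6 or the T8 libraries removed.

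Fmod differed by -5.15 (SE 0.72) between CM and TGF-beta. Ogn had nearly equal means, at 4.71 ± 3.61 and 4.66 ± 1.97 CPM (SD, n = 4 each; -0.01, SE 0.64, adjusted p = 0.991). Prelp had a difference of 0.87 (SE 0.77, adjusted p = 0.416), which passed with the replicate block (1.38, adjusted p = 0.0239) and when PSC4 replicate 1 was assigned to PSC5 (1.34, adjusted p = 0.0131) or left out (1.29, adjusted p = 0.00369). Lum (0.39, SE 0.78) and Podn (0.20, SE 0.62) did not pass.

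**Figure D3:**
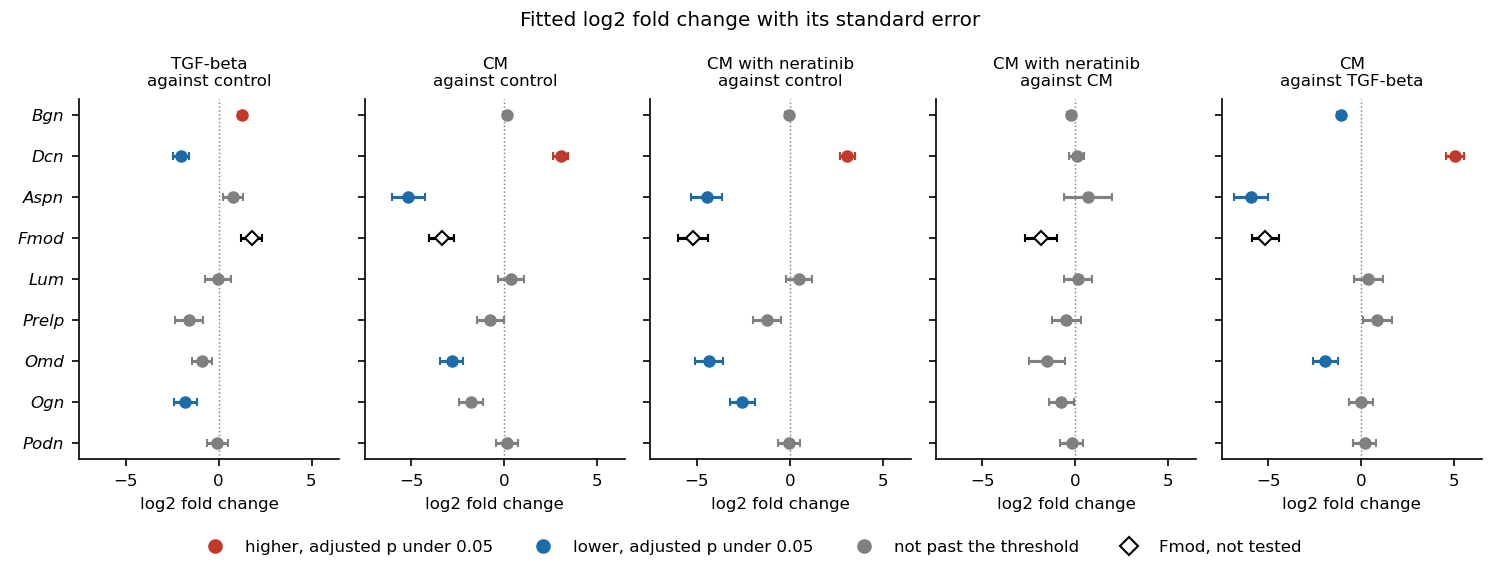
Fitted log2 fold change (horizontal axes) of each gene in the 5 comparisons, with bars for the standard error; filled red and blue points passed the test, grey points did not, and the open diamond is Fmod, which was not tested. Dcn lies at -2.01 with TGF-beta and at 3.03 in CM, and no tested gene is coloured in the neratinib panel.

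The levels of several members also differed between the lines. Fmod, Prelp, Lum and Podn were higher in PSC4 replicates 2 and 3 than in PSC5 in all 4 media, with no overlap in any medium, while Bgn and Dcn overlapped between the lines in 3 of 4 media. With 1 or 2 libraries on a side, ranges can separate by chance, and the share of all genes that separate so was not counted. Of all genes, 43.4% were called between the lines with PSC4 replicate 1 assigned to PSC5. Fmod was chosen for its line difference, so its own separation was given in advance. Whether that of Prelp, Lum and Podn is particular to the family was not tested. In the TGF-beta group, where both lines have 2 libraries, the ratio of means was 12.1 for Fmod, 20.4 for Lum, 6.57 for Prelp and 3.74 for Podn. In control medium the ratios were 4.39, 3.98, 4.09 and 2.87. In the conditioned groups PSC4 replicate 2 is the only library on its side, and the ratios for these 4 genes lay between 2.21 and 9.40.

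Lum separated by line, and its group means were close, although its values moved in opposite directions in the lines with TGF-beta. As labelled, the log2 fold change was 0.81 (SE 0.84) within PSC4 and -1.94 (SE 1.09) within PSC5. With PSC4 replicate 1 assigned to PSC5, it was 0.42 (SE 0.55) within PSC4 and -2.02 (SE 0.65) within PSC5. The group means were 7.24 ± 5.33 CPM in control medium (n = 5), 9.11 ± 9.59 with TGF-beta, 7.23 ± 6.09 in CM and 9.16 ± 9.60 in CM with neratinib (SD, n = 4 each). PSC4 replicates 2 and 3 ran from 11.9 to 23.3 CPM over the 4 media, and PSC5 from 0.325 to 7.11 CPM. Podn ran from 18.3 to 21.0 CPM in PSC4 replicates 2 and 3 in all 4 media, a narrow band, and from 2.64 to 13.8 CPM in PSC5.

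Prelp had both a line and a medium pattern in its values. PSC4 replicate 2 had 95.9 CPM in control medium, 31.8 with TGF-beta, 83.6 in CM and 73.7 in CM with neratinib. PSC5 had 20.4 to 27.4 CPM in control medium, 2.36 to 7.61 with TGF-beta, 11.2 to 13.1 in CM and 7.35 to 8.34 in CM with neratinib. TGF-beta libraries were the lowest of each of these series, apart from an overlap with CM with neratinib in PSC5.

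Of the 3 libraries labelled PSC4 replicate 1, those in control medium and in CM stood nearer to PSC5 than to the other PSC4 libraries in these genes. The CM library had 3.23 CPM of Fmod (PSC5 in CM 1.26 to 1.64), 3.26 of Lum (2.68 to 7.11), 13.5 of Prelp (11.2 to 13.1) and 9.85 of Podn (7.28 to 11.0). The control library had 17.1 CPM of Fmod, 3.78 of Lum, 23.3 of Prelp and 8.07 of Podn, each near or within the PSC5 range of control medium and below PSC4 replicates 2 and 3. In CM with neratinib the library so labelled had 0 CPM of Fmod, 1.62 of Prelp and 1.45 of Podn, below every other library for these 3 genes, PSC5 included. Its 4.72 CPM of Lum lay within the PSC5 range of 1.97 to 6.66 in that medium. With the labels as given, the test of PSC5 against PSC4 called Prelp (-2.10, SE 0.55, adjusted p = 0.0397) and Lum (-2.0, SE 0.56, adjusted p = 0.0462) lower in PSC5. That is 0 of 8 higher and 2 lower, where 2.18% of all genes were higher and 4.78% lower. Prelp kept its call in 3 of 17 fits that left out 1 library and Lum in 4. With these 3 libraries assigned to PSC5, 5 of 8 genes were called: Prelp, Lum, Podn (-1.56, adjusted p = 0.00116) and Aspn (-1.67, adjusted p = 0.00438) lower and Dcn (0.74, adjusted p = 0.0415) higher in PSC5. In that fit 21.7% of all genes were higher and 21.8% lower. With the libraries removed, Prelp, Lum, Podn (-1.50, adjusted p = 0.000863) and Aspn (-1.56, adjusted p = 0.0123) were called, all lower, where 21% of all genes were higher and 21.5% lower. The line term for Fmod was -2.33 (SE 0.49) as labelled.

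**Figure D4:**
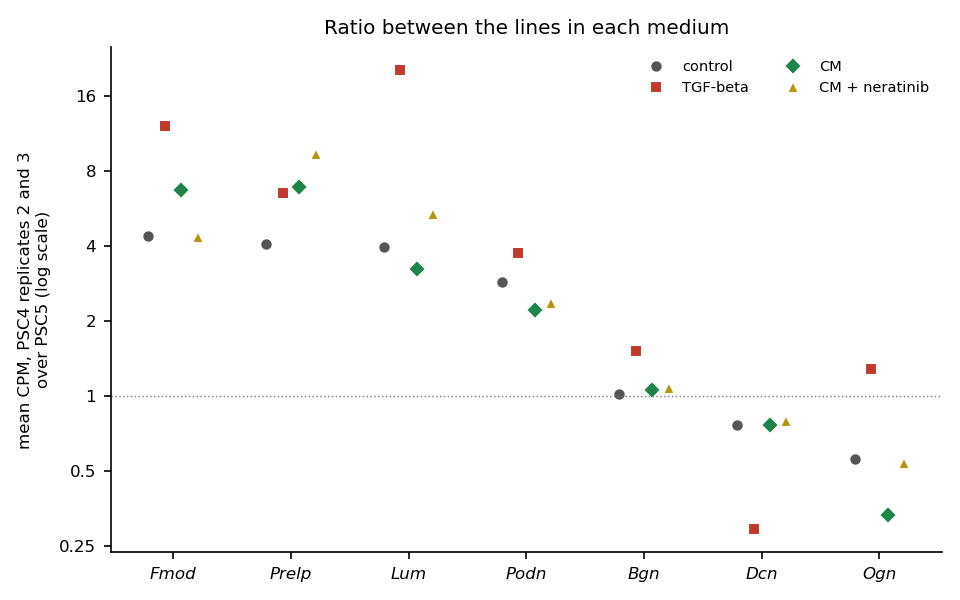
Ratio of the mean CPM in PSC4 replicates 2 and 3 to that in PSC5 (vertical axis, log scale) in each medium for 7 genes; Aspn and Omd are left out because of their low counts. Fmod, Prelp, Lum and Podn lie above 1 in all media (from 2.21 to 20.4), Bgn lies near 1 except with TGF-beta (1.51), and Dcn lies below 1.

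Whether a medium acted differently in the 2 lines was asked with interaction terms for 4 comparisons. None of the 8 genes passed in any of them, and the share of all genes called was 0% in each. In the TGF-beta comparison Dcn and Aspn had an unadjusted p under 0.05, but the share of all genes at that threshold was not counted. These values are therefore a description. The fall of Dcn was 1.58 smaller on the log2 scale in PSC5 (SE 0.72). For Aspn the difference was -2.49 (SE 1.03), with 3.01 and 2.49 CPM in treated PSC4 and 0.602 and 0.244 CPM in treated PSC5. Both had an adjusted p of 1. The same difference for Fmod was -1.90 (SE 1.08). These terms use the lines as labelled. With PSC4 replicate 1 assigned to PSC5, Dcn with TGF-beta was -2.73 (SE 0.52) within PSC4 and -1.36 (SE 0.46) within PSC5. Aspn was then 1.39 (SE 0.55) and -0.50 (SE 0.58). In the other 3 comparisons none of the 8 members had an unadjusted p under 0.05.

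Neighbours in the genome did not always share a pattern. On chromosome 13, Ecm2, an extracellular matrix gene chosen here after its values were seen, stood at 2.43 ± 0.602 CPM in control medium and fell with TGF-beta (-0.97, SE 0.28, adjusted p = 0.0118), in CM (-1.14, SE 0.28, adjusted p = 0.0153) and in CM with neratinib (-1.57, SE 0.29, adjusted p = 0.000676). Aspn and Omd fell in both conditioned groups and Ogn in that with neratinib. Nol8, the gene after Ogn and no member of the family, had 37.1 ± 1.59 CPM in control medium and 39.4 ± 2.61 CPM in CM (0.08, SE 0.10, adjusted p = 0.632), and rose to 45.6 ± 7.83 CPM in CM with neratinib (0.30, SE 0.10, adjusted p = 0.0283). On chromosome 10, Dcn rose in CM while Lum did not pass, and Kera and Epyc, which follow them, had at most 3 and 1 counts in a library. On chromosome 1, Fmod and Prelp shared the line pattern but differed with TGF-beta, where the means were 183 ± 181 and 18.9 ± 16.2 CPM against 41.7 ± 34.2 and 53.3 ± 40.7 CPM in control medium.

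Genes whose pattern over the 17 libraries was nearest to that of Fmod or Dcn were found by the mean absolute difference of centred log2 CPM among 9767 genes with at least 10 CPM on average. For Fmod these were Postn (periostin, 1.254), Dkk2 (1.268), Cygb (1.294), Eln (elastin, 1.319) and Col6a3 (1.378), against a median of 2.675 over the candidates. Postn stood at 598 ± 466 CPM in control medium, 2134 ± 677 with TGF-beta, 221 ± 90.9 in CM and 85.0 ± 90.8 in CM with neratinib. Dkk2, a Wnt inhibitor, differed from Fmod with TGF-beta, where its mean was lower than in control medium. It stood at 38.2 ± 27.4, 9.28 ± 2.79, 3.13 ± 2.08 and 1.31 ± 1.82 CPM in the same order of groups. The means of Cygb, Eln and Col6a3 were highest with TGF-beta. For Dcn they were Cxcl1 (0.552), Rtn4rl2 (0.586), Mmp3 (0.653), Igfbp3 (0.792) and Mt2 (0.826), against a median of 1.986. Cxcl1, a chemokine, stood at 9.83 ± 0.774, 1.07 ± 0.586, 75.1 ± 37.8 and 118 ± 70.5 CPM in the same order of groups (SD, n = 5 and then 4 each).

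The collagens that the family binds moved apart from it in part. Of 11 fibrillar collagen genes 8 were higher with TGF-beta and none lower (19.7% and 20.5% of all genes), with a median of 1.15 against -0.02 over all genes. Col1a1 reached 7751 ± 2201 CPM from 1751 ± 323 (2.13, SE 0.29, adjusted p = 4.4e-05), and Col5a3 rose by 3.60 (SE 0.39, adjusted p = 5.66e-06). In CM 3 of 11 were lower and none higher (7.14% and 7.05% of all genes), among them Col11a1 (-1.02, SE 0.32, adjusted p = 0.0438) and Col5a1 (-0.75, SE 0.20, adjusted p = 0.0223). With only these groups fitted 4 were lower and 2 higher. None passed without CM PSC4 replicate 2 or either CM PSC5 library, or with the T6 libraries removed, and 1 passed without control PSC4 replicate 2 or 3, without either PSC5 control, without a line term or with the T8 libraries removed. In CM with neratinib 6 were lower and 1 higher than in control medium (20.9% and 22.2% of all genes), the latter Col11a2 at 21.6 ± 12.0 CPM from 2.49 ± 0.575.

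Enzymes that build the sugar chains were mostly higher with TGF-beta among those that passed. Of 16 genes of chondroitin and dermatan sulfate synthesis 9 were higher and 1 lower with TGF-beta (median 0.30), where 19.7% and 20.5% of all genes were. In CM 3 were higher and 0 lower (7.05% and 7.14% of all), and in CM with neratinib 3 were higher and 3 lower, near the 22.2% and 20.9% of all genes. The count with TGF-beta was 6 higher and 0 lower without TGF-beta PSC4 replicate 2 or with the T6 libraries removed, and 5 and 1 without TGF-beta PSC4 replicate 3. That in CM was 4 higher and 1 lower with the replicate block, 3 and 4 with only these groups fitted, and 1 and 0 without CM PSC5 replicate 1. Chst11, a chondroitin 4-O-sulfotransferase, rose in all 3, from 54.9 ± 5.47 CPM in control medium to 160 ± 36.7 with TGF-beta, 186 ± 66.7 in CM and 246 ± 103 in CM with neratinib. Ust, a uronyl sulfotransferase, rose with TGF-beta by 1.31 (SE 0.10, adjusted p = 2.48e-07). Among the 6 tested keratan sulfate synthesis genes, TGF-beta gave 4 higher and 1 lower (19.7% and 20.5% of all genes), led by Chst2 (1.34, SE 0.21, adjusted p = 0.000129). In CM 1 was lower and 0 higher (7.14% and 7.05% of all genes), Chst1 (-0.61, SE 0.16, adjusted p = 0.019). The CM count was 1 higher and 1 lower with the replicate block, DESeq2, only these groups, or PSC4 replicate 1 moved or left out, and 0 without CM PSC5 replicate 1 or control PSC5 replicate 2. Of 7 genes of the linker that joins the chains to the core protein, 1 was higher and 0 lower with TGF-beta, B4galt7 (0.51, SE 0.10, adjusted p = 0.00125). The shares of all genes were 19.7% and 20.5%, so this count does not stand above them. None passed in CM, where 7.05% of all genes were higher and 7.14% lower. With the replicate block, or with PSC4 replicate 1 assigned to PSC5 or left out, 1 more was lower in each comparison, as it was with TGF-beta without TGF-beta PSC5 replicate 1.

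Among 11 tested proteases and their helpers that process these proteins or collagen, 3 were higher and 3 lower with TGF-beta, near the 19.7% and 20.5% of all genes. In CM 3 were higher and 1 lower (7.05% and 7.14% of all genes), against 4 and 3 with only these groups fitted and 2 and 0 with the T6 libraries removed. Tll1, a tolloid-like protease of the BMP1 group, rose with TGF-beta from 4.98 ± 0.867 to 37.7 ± 10.6 CPM (2.82, SE 0.23, adjusted p = 4.71e-07), and Adamts1 fell (-2.65, SE 0.28, adjusted p = 5.43e-06). Mmp3 (stromelysin 1), which can cleave decorin, rose in CM from 32.1 ± 6.58 to 214 ± 48.8 CPM (2.76, SE 0.26, adjusted p = 1.8e-05), the group in which Dcn also rose. Mmp13, a collagenase, rose in CM from 1.4 ± 1.24 to 35.1 ± 26.8 CPM (4.89, SE 0.45, adjusted p = 1.65e-05).

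Receptors and ligands that the family is known to bind or modulate were called in both directions. Of 16 tested, with TGF-beta 8 were higher and 4 lower (19.7% and 20.5% of all genes), and in CM with neratinib 7 and 3 (22.2% and 20.9%), so that the lower counts were near the shares of all genes. In CM 5 were higher and 1 lower (7.05% and 7.14%), against 7 and 3 with DESeq2 or without PSC4 replicate 1, and 3 and 0 without CM PSC5 replicate 1. Tgfb1 rose with TGF-beta from 40.1 ± 4.14 to 171 ± 41.9 CPM (2.10, SE 0.19, adjusted p = 8.15e-07). The biglycan receptor genes Tlr2 (1.56, SE 0.32, adjusted p = 0.00622) and Cd14 (1.55, SE 0.21, adjusted p = 0.000473) rose in CM, where Bgn itself did not pass. Among 9 further family members and neighbours 6 were tested. In CM with neratinib against CM 3 were higher and 1 lower (10.8% and 9.63% of all genes). The count was 1 and 0 with only these groups fitted, without PSC4 replicate 1, without CM PSC4 replicate 1 or with T6 removed. It was 2 and 0 without neratinib PSC4 replicate 1 or PSC5 replicate 2, or with T8 removed. Tsku (tsukushi) was among those higher in the main fit (82.4 ± 23.4 against 42.8 ± 5.55 CPM, log2 0.94, SE 0.15, adjusted p = 0.00109).

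The epithelial marker sum was up to 323 CPM in the T6 libraries of both conditioned groups, beside the values of Dcn, Aspn, Omd, Ogn and Fmod above, and its part in them was not tested. With the T6 libraries removed, the log2 fold change of Fmod in CM was -4.05, and with the T8 libraries removed it was -2.94. The calls of Dcn and Aspn in CM and in CM with neratinib held in both cases. The T6 libraries include PSC4 replicate 2 (9.77 CPM of Fmod in CM), and T8 includes PSC4 replicate 1, which was closer to PSC5 at 92% of line genes in CM. For Fmod, medium code and line thus cannot be told apart in these 2 values.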

How the data were processed

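RNA of 17 libraries was analysed, grouped by the labels. Per the submitters' processing notes, Salmon 1.4.0 and DESeq 2 were used with GRCm38 and mm10. The deposited values are expected counts per gene, of which 74.8% of those above 0 were not whole, and they were rounded. Sequences are from RefSeq.

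All 17 libraries entered 1 model with group and cell line (edgeR 4.0.16 quasi-likelihood test under R 4.3.3, TMM factors, filterByExpr by group with a minimum of 10 counts, Benjamini-Hochberg over 13923 genes, called at adjusted p under 0.05). The code was tested on simulated data. Log2 fold changes carry standard errors. Intervals and floors (3 counts) cover counting error only.

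The members and lists were chosen with earlier results of these data known. From 82 genes in 7 lists, up to 2 per list and comparison were named, those with the largest change among called genes with at least 10 CPM in the higher group. The 5 genes nearest in pattern to Fmod and to Dcn were named too.

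Libraries of the same line and number share a passage, and the main model did not take this pairing into account. Their deviations from group means correlated above 0.1 in 22 of 22 pairs (lowest 0.12). The replicate block, among the alternatives, did take the pairing into account. Alternatives were other scaling factors, DESeq2 1.42.0, no filter, no line term, a replicate block, unrounded counts, only the 2 groups compared, PSC4 replicate 1 moved or removed, and each library left out. Removing the T6 or T8 libraries and the union of exons as length were added after the data were seen.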

Additional observations from a re-analysis of the deposited data

Results flagged for a closer look

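In 3 of 36 groups of values (9 genes in 4 groups) a single library lay far from the rest, by Dixon's criterion, which flags about 1 in 20 groups by chance. Omd in control PSC4 replicate 2 was the lowest of 5 at 0.286 CPM, from 8 counts where the other 4 had 16 each. Prelp was highest in PSC4 replicate 2 in CM (83.6 CPM, next 13.5) and in CM with neratinib (73.7 CPM, next 8.34). In both groups this library is the only one labelled PSC4 apart from replicate 1.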

How the results depend on the processing

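Dcn and Bgn with TGF-beta, Dcn and Aspn in CM, Dcn, Ogn, Omd and Aspn in CM with neratinib, and Dcn, Bgn and Aspn in CM against TGF-beta kept direction and call in each alternative in which they were tested. Of 48 sign changes in 16 results, 0 were in called values. Without a line term, Lum was 0.33 (TGF-beta), -0.00 (CM) and -0.34 (CM against TGF-beta), Podn -0.03 (CM) and Ogn 0.02 (CM against TGF-beta), and with only the 2 groups compared that Ogn value was 0.03. When PSC4 replicate 1 was left out, Bgn was 0.14 and Podn 0.26 in CM with neratinib against control, and Dcn -0.09 and Ogn 0.05 against CM. With T6 removed, Lum was 0.06 with TGF-beta, Podn -0.03 in CM and Prelp -0.18 in CM against TGF-beta, and with T8 removed Dcn was -0.09 for neratinib against CM. With 1 library left out at a time, the sign depended on the library in the following values, given as the range over those fits. With TGF-beta, Lum ran from -0.42 to 0.39 and Podn from -0.23 to 0.22. In CM, Lum ran from -0.18 to 0.79 and Podn from -0.03 to 0.37. In CM with neratinib against control, Bgn ran from -0.25 to 0.16 and Podn from -0.61 to 0.39. For neratinib against CM, Dcn ran from -0.20 to 0.33, Lum from -0.33 to 0.70, Prelp from -1.45 to 0.01, Aspn from -0.01 to 1.34 and Podn from -0.80 to 0.21. In CM against TGF-beta, Lum ran from -0.10 to 0.85, Ogn from -0.59 to 0.30 and Podn from -0.11 to 0.42. The cause was not tested.

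In CM against TGF-beta 2 members were called with only the 2 groups compared, where 6 were tested. In that fit 4616 of all 13372 genes tested were called, a share near that of the members. For PSC5 against PSC4 the count was 5 when PSC4 replicate 1 was assigned to PSC5 (43.4% of all genes called), 4 when it was left out (42.6%), and 0 to 3 with 1 library left out (0% to 21.7%). The replicate block changed the calls of Ogn and Prelp given above and no other member's. Counts of the other lists that moved by over 1.5 times stand beside those counts. Omd passed the filter through its control libraries alone and could not be tested in fits where the filter dropped it. In CM against control it was tested in 17 alternatives, where Dcn was tested in 21. Its lower calls against control are thus a description, although they were kept where it was tested with neratinib. Aspn passed the filter through control and TGF-beta libraries alone, so its lower calls in the conditioned groups are a description too. Counts of Aspn and Omd limit what can be said of them.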
